A study of Mus musculus with 7 samples.

Results

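Collagens and laminins are the chain-forming proteins of the extracellular matrix, and their genes were taken here as all protein-coding mouse genes whose symbol is Col followed by a digit or Lama, Lamb or Lamc followed by a digit. The rule matched 56 of the 25467 genes in the count table, the same 56 symbols that it matched in the annotation. Of these, 55 encode chains, 44 of collagens and 11 of laminins. The other 1, Col4a3bp, encodes a ceramide transfer protein and shares only its first letters with the family, so it was left out of every count below; its fitted log2 fold change was 0.02 (SE 0.06, FDR = 0.943, edgeR's quasi-likelihood test with Benjamini-Hochberg adjustment over all genes). Expression was measured by RNA sequencing of brain tissue titled as medial prefrontal cortex (mPFC), in 4 libraries from mice that received rhTSP1, the recombinant human form of thrombospondin-1 (TSP1 in the text) and 3 libraries from mice given PBS (phosphate-buffered saline). Each library was taken as 1 mouse, as the series speaks of 7 different mice. The sources used here do not give strain, genotype, sex, age, dose, route or time of dissection, and all 7 libraries share the tissue and the library kit.

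Collagens are built from 3 chains wound into a triple helix. Fibrillar collagens form the cable-like fibrils of connective tissue, and in the brain they are found mainly in the meninges and around larger vessels. Collagen IV and the laminins, which are cross-shaped trimers of an alpha, a beta and a gamma chain, form separate networks that together make the basement membrane, in the brain the sheet around blood vessels and under the meninges. Other collagens decorate fibrils, form beaded filaments, or span the cell membrane, and some of these are made by neurons. Thrombospondin-1 is itself a secreted matrix protein that binds collagens and cell surface receptors.

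No collagen or laminin gene passed an adjusted p (FDR) threshold of 0.05 in the quasi-likelihood test. That count was 0 of the 54 members tested and, by the same edgeR fit, 0 of 17211 genes (0%) in the whole table. At an unadjusted p under 0.05 there were 4 of 54 members (7.41%), against 9.65% of all genes tested. Of those 4, 3 had higher values with TSP1, among them Lama3 and Col6a5, and Col6a4 had lower ones; over all genes 4.21% were higher and 5.44% lower at that p. DESeq2 called no member, against 0.603% of its genes with an adjusted p. Col6a5 had no adjusted p in DESeq2. The exact test of edgeR called 1 member, Col6a4, against 0.494% of all genes, 0.372% in the lower direction. The fitted log2 fold change, TSP1 over PBS, was above 0 in 33 members and below 0 in 21, with a median of 0.06, where the median of all genes was 0.00 and 51.1% were above 0. For 42 of the 54 members (77.8%) it was smaller than 0.25 in size, against 80.4% of all genes. The SE of a member's log2 fold change had a median of 0.16, against 0.11 over all genes. The gene not tested, Col10a1, a short-chain collagen of growth cartilage, had 3, 2, 2 and 7 counts with TSP1 and 5, 2 and 3 with PBS.

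**Figure D1:**
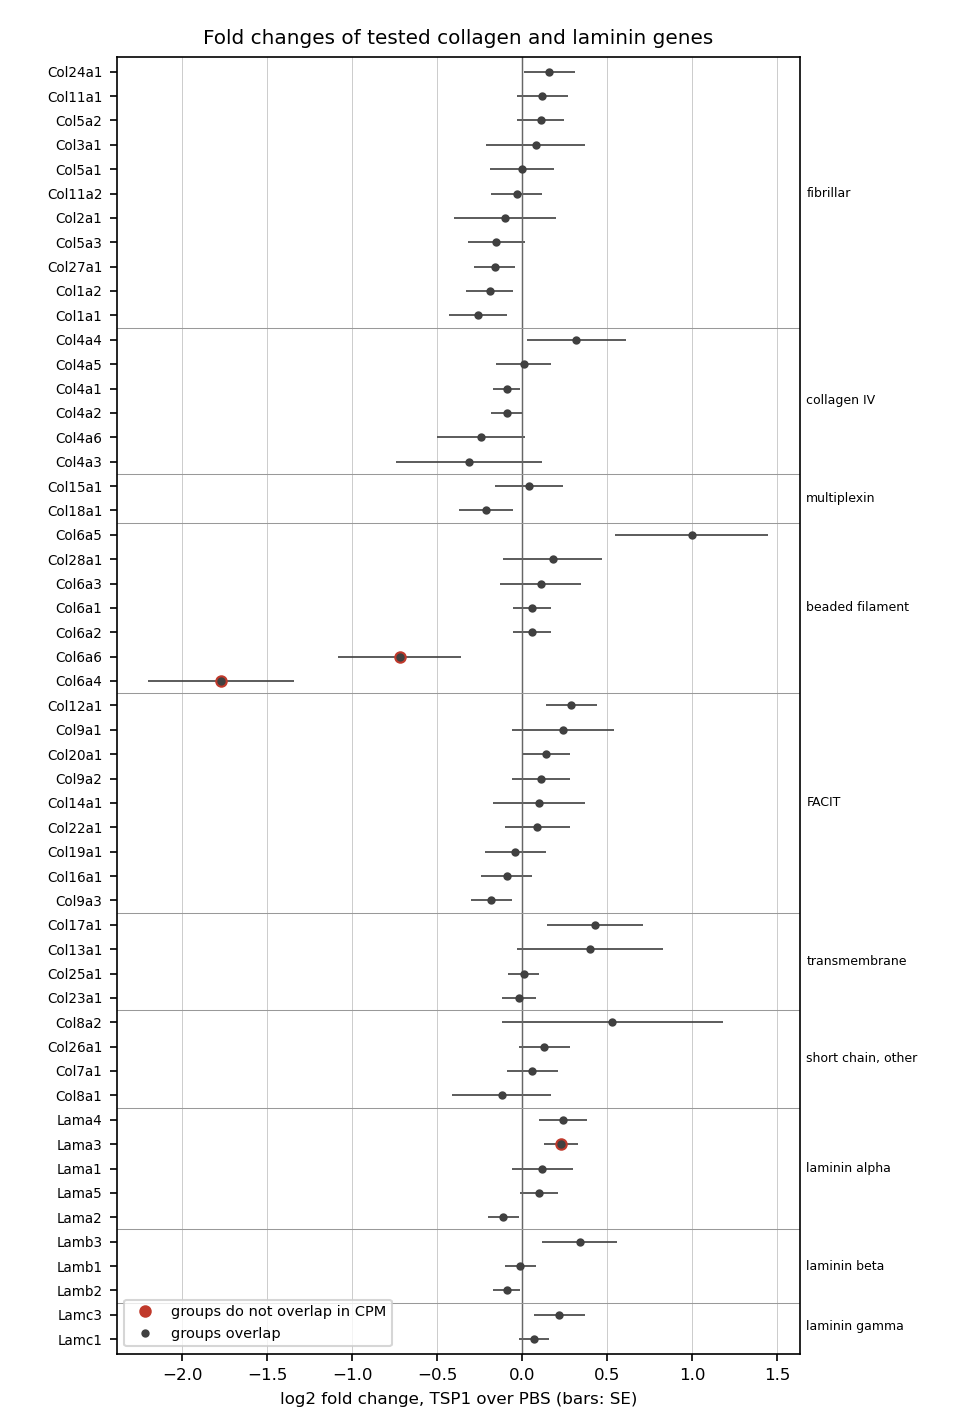
Log2 fold change of members tested, TSP1 over PBS (horizontal axis), grouped by class down the page; points are the fitted values and bars 1 SE of edgeR's quasi-likelihood fit, and red marks members whose groups do not overlap. Most points lie within 0.25 of 0, and the widest values belong to Col6a4 (-1.77) and Col6a5 (1.00).

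Library totals ran from 15090336 to 20755167 counts. TSP1 replicate 4 stood apart in markers of striatal neurons, which summed to 616 CPM (counts scaled to a common library size, with TMM) there, against 248 to 263 CPM in the other TSP1 libraries and 234 to 257 CPM with PBS. Without that library, 3 members had an unadjusted p under 0.05 and none passed the FDR threshold; without PBS replicate 2 there were 2 such members. Of the 10 endothelial markers, 9 had fitted values below 0 (median log2 fold change -0.16), with sums of 239 to 300 CPM with TSP1 and 307 to 374 CPM with PBS. Of the pericyte and smooth muscle markers, 5 of 9 tested lay above 0 (median 0.02), with sums of 237 to 286 CPM with TSP1 and 251 to 270 CPM with PBS. Markers of meningeal and perivascular fibroblasts, the main makers of fibrillar collagen in the brain, lay above 0 in 4 and below 0 in 6 of 10 (median -0.09), with sums of 65.5 to 103 CPM with TSP1 and 65.4 to 89.4 CPM with PBS. Astrocyte markers lay below 0 in 7 of 8 (median -0.16), with sums of 5210 to 6410 CPM with TSP1 and 5990 to 6990 CPM with PBS; microglia markers lay below 0 in 8 of 8 (median -0.23), with sums of 390 to 492 CPM with TSP1 and 495 to 560 CPM with PBS. Oligodendrocyte markers, all 8 below 0 (median -0.17), summed to 3160 to 8680 CPM with TSP1 and 4770 to 6020 CPM with PBS. The 8680 CPM was that of TSP1 replicate 4, against 3160, 3380 and 4440 CPM in the other TSP1 libraries. Neuron markers, 5 of 8 above 0 (median 0.09), summed to 7060 to 7420 CPM with TSP1 and 6730 to 7260 CPM with PBS. Of 8 choroid plexus markers only 2 passed the low-count filter and 5 were at 0 in at least 1 library, with sums of 3.3 to 7.52 CPM with TSP1 and 3.84 to 4.83 CPM with PBS. The part of these markers in the results below was not tested. In bulk tissue, fewer cells of a type and less RNA per cell cannot be told apart.

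Per exon length, 1 collagen VI chain gave the highest level of all members. Levels are given as RPKM, the CPM per kilobase of annotated exon, so that genes of different length can be set side by side. The length joins the exons of all annotated transcripts of a gene. It can exceed the length of the RNA present, so orders and ratios between genes depend on it. Col6a1, which encodes the alpha1 chain of the beaded filaments of collagen VI, averaged 47.6 RPKM over the 7 libraries (39.4 to 56.1), which is 31.8% of the summed RPKM of all members. Col4a2 (13.0 RPKM) and Col4a1 (8.67 RPKM), the chains of the common form of collagen IV, came next, and these first 3 genes made up 46.2% of the sum. They were followed by Col5a1 (6.99 RPKM), a regulator of fibril assembly, and by the laminin chains Lamb2 (6.10 RPKM) and Lamc1 (5.41 RPKM). In all, 27 members averaged at least 1 RPKM, 24 lay between 0.1 and 1 RPKM, and 4 were under 0.1 RPKM, namely Col6a5, Col6a6, Col4a3 and Col10a1. The library ranges of neighbours in this order overlapped in all but 4 of 54 cases, so most of the order is not resolved by these libraries. The exceptions were Col6a1 over Col4a2, Col4a2 over Col4a1, Col25a1 over Lama5, and Col7a1 over Col22a1. The summed RPKM of all members was 150 ± 10.8 with TSP1 (SD, n = 4) and 149 ± 7.97 with PBS (SD, n = 3), a difference smaller than the spread within either group.

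**Figure D2:**
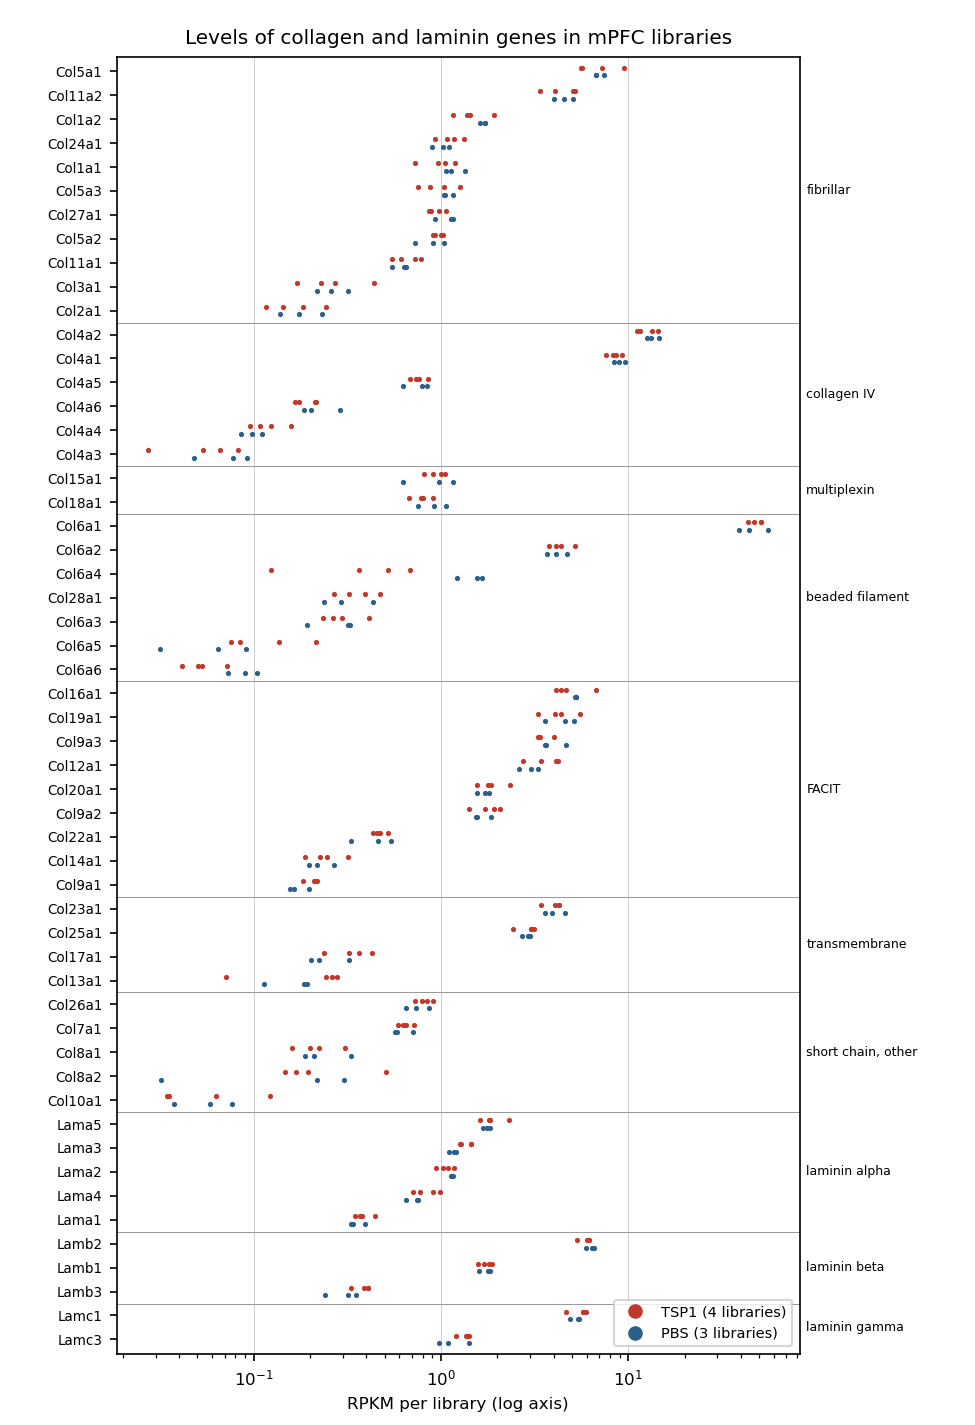
Level of members in RPKM on a log axis, 1 point per library, grouped by class and within a class in the order of the mean over the 7 libraries. Col6a1 lies alone at 39.4 to 56.1 RPKM, well above the other chains shown.

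The fibrillar collagens showed no change past the test. Of 11 members, 5 lay above 0 and 6 below 0, with a median log2 fold change of -0.03 and a range of -0.26 to 0.16. None had an unadjusted p under 0.05 in the quasi-likelihood fit of all libraries. Their summed level was 19.0 ± 2.77 RPKM with TSP1 (SD, n = 4) and 19.5 ± 0.919 RPKM with PBS (SD, n = 3). Col1a1, the alpha1 chain of collagen I and the fibrillar member of smallest p, had 7.78, 4.79, 6.91 and 6.37 CPM with TSP1, and 6.98, 7.45 and 8.80 CPM with PBS. The groups overlapped, the lowest value being TSP1 replicate 2 and the highest PBS replicate 3 (log2 fold change -0.26, SE 0.17, FDR = 0.669, edgeR quasi-likelihood test). Its partner chain Col1a2 had 17.2, 17.8, 23.8 and 14.4 CPM with TSP1, and 20, 21.3 and 21.3 CPM with PBS. Here TSP1 replicate 3 was above every PBS library and the other TSP1 libraries below them, with a log2 fold change of -0.19 (SE 0.14, FDR = 0.711). The log2 fold change was -0.34 without that library and -0.08 without TSP1 replicate 4 (adjusted p = 0.392 and 0.875). Without TSP1 replicate 3 the unadjusted p of Col1a2 was 0.00635 in the quasi-likelihood test. Col3a1, which forms the thin fibrils of elastic tissues and vessel walls, had 2.24, 1.67, 4.33 and 2.67 CPM with TSP1 and 2.53, 2.13 and 3.12 CPM with PBS. Its highest value was also that of TSP1 replicate 3, the library with the highest sum of fibroblast markers (103 CPM). The log2 fold change of Col3a1 was 0.08 (SE 0.29), and it ran from -0.24, without that library, to 0.26 with 1 library left out. Per exon length, Col1a1 was at 0.689 ± 0.184 of the level of Col1a2 with TSP1 (SD, n = 4) and at 0.702 ± 0.0707 with PBS (SD, n = 3). The annotated lengths behind this ratio were 6563 bases for Col1a1 and 12426 for Col1a2.

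Collagen IV, the covalently linked network of the basement membrane, likewise stayed within the spread of the libraries. Of its 6 genes, 2 lay above 0 and 4 below 0 (median log2 fold change -0.09), and none had an unadjusted p under 0.05. Col4a1 had 69.1, 61.6, 64.4 and 56.6 CPM with TSP1, and 71.4, 62.7 and 67.1 CPM with PBS. Col4a2 had 95.8, 88.6, 76.4 and 74.0 CPM with TSP1, and 83.0, 87.3 and 96.5 CPM with PBS. Both genes overlapped between the groups, each with a log2 fold change of -0.09 (SE 0.08 and FDR = 0.741 for Col4a1, SE 0.09 and FDR = 0.805 for Col4a2). The collagen IV genes lie head to head in pairs. In GENCODE M21 (GRCm38) the starts of Col4a1 and Col4a2 on chromosome 8 overlap by 22 bases, those of Col4a4 and Col4a3 on chromosome 1 are 71 bases apart, and those of Col4a6 and Col4a5 on chromosome X are 1308 bases apart. Reads in the overlap of Col4a1 and Col4a2 cannot be told apart where counting did not use strand. Levels within a pair were unequal per exon length. Col4a1 was at 0.671 ± 0.0571 of Col4a2 with TSP1 (SD, n = 4) and at 0.672 ± 0.0791 with PBS (SD, n = 3), and Col4a5 was 4.03 ± 0.794 times Col4a6 with TSP1 and 3.39 ± 0.503 times with PBS. Col4a3 and Col4a4, chains known from the filter membrane of the kidney, averaged only 0.0639 and 0.112 RPKM. Of the multiplexins, collagens of the basement membrane zone that carry glycosaminoglycans, Col18a1, the precursor of the fragment endostatin, had 5.61, 6.40, 4.77 and 5.5 CPM with TSP1 and 7.5, 5.32 and 6.42 CPM with PBS. It overlapped between the groups (log2 fold change -0.21, SE 0.16, FDR = 0.730), and Col15a1 had a log2 fold change of 0.04 (SE 0.20).

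Among the laminins, 8 of 11 genes lay above 0 with a median log2 fold change of 0.12, and 2 (18.2%) had an unadjusted p under 0.05, both higher with TSP1, against 9.65% of all genes at that p and 4.21% in the higher direction. Lama3, the alpha3 chain, had 15.6, 13.6, 15.5 and 13.7 CPM with TSP1 and 11.8, 12.6 and 13.0 CPM with PBS. Every TSP1 library was above every PBS library, with a log2 fold change of 0.23 (SE 0.10, FDR = 0.489). The unadjusted p of Lama3 was above 0.05 in DESeq2, in the exact test, with length and GC correction, and without TSP1 replicate 1 or 3 or PBS replicate 1 or 2. Over all members, 4 of 54 (7.41%) did not overlap between the groups, against 10.1% of all genes tested. TSP1 lay above PBS in 2 of them, Lama3 included (4.83% of all genes), and below PBS in 2, Col6a4 and Col6a6 (5.26% of all genes). The alpha3 chain assembles with the beta3 chain in a laminin known as the anchor of epithelial cells such as those of skin. Lamb3, that beta3 chain, had 2.70, 2.69, 2.58 and 2.18 CPM with TSP1 and 2.1, 1.6 and 2.32 CPM with PBS. Only TSP1 replicate 4 fell within the PBS range, and the log2 fold change was 0.34 (SE 0.22, FDR = 0.670).

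The laminin chains of the vascular and glial basement membranes did not pass the test. Lama2, the alpha2 chain found beneath astrocyte endfeet and in muscle, had 15.4, 16.7, 17.8 and 19.3 CPM with TSP1 and 18.8, 18.9 and 18.5 CPM with PBS (log2 fold change -0.11, SE 0.09, FDR = 0.748). Lama4, an endothelial alpha chain, had 11.0, 8.56, 11.9 and 9.37 CPM with TSP1 and 7.84, 9.05 and 9.11 CPM with PBS (log2 fold change 0.24, SE 0.14, FDR = 0.622). For Lama2, 3 TSP1 libraries lay below the PBS range and replicate 4 above it; for Lama4, 3 lay above the PBS range and replicate 2 within it. Lamb1, the beta1 chain, had 16.8, 15.7, 18.5 and 18.0 CPM with TSP1 and 17.8, 15.9 and 18.2 CPM with PBS, with a log2 fold change of -0.01 (SE 0.09). Lamb2, the beta2 chain of vessels and of the neuromuscular junction, had 37.5, 36.7, 37.7 and 32.4 CPM with TSP1 and 39.9, 39.2 and 36.3 CPM with PBS, with a log2 fold change of -0.09 (SE 0.08). Lamc1, the gamma chain shared by most laminins, had 47.3, 38.5, 49.3 and 47.7 CPM with TSP1 and 44.9, 45.2 and 40.6 CPM with PBS, with a log2 fold change of 0.07 (SE 0.09). All 3 chains overlapped between the groups. Per exon length, the gamma1 chain (5.41 RPKM) stood above gamma3 (1.26 RPKM) without overlap over the 7 libraries, and beta2 (6.10 RPKM) above beta1 (1.74 RPKM) and beta3 (0.349 RPKM). The alpha chains averaged 1.84 RPKM for Lama5, 1.28 for Lama3, 1.10 for Lama2, 0.791 for Lama4 and 0.371 for Lama1. Summed laminin levels were 22.5 ± 1.11 RPKM with TSP1 (SD, n = 4) and 21.5 ± 0.209 RPKM with PBS (SD, n = 3). All basement membrane members together, 19 genes of collagen IV, the multiplexins and the laminins, had a median log2 fold change of 0.04, with 11 above 0 and 8 below 0, and 2 (10.5%) at an unadjusted p under 0.05, near the 9.65% of all genes.

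**Figure D3:**
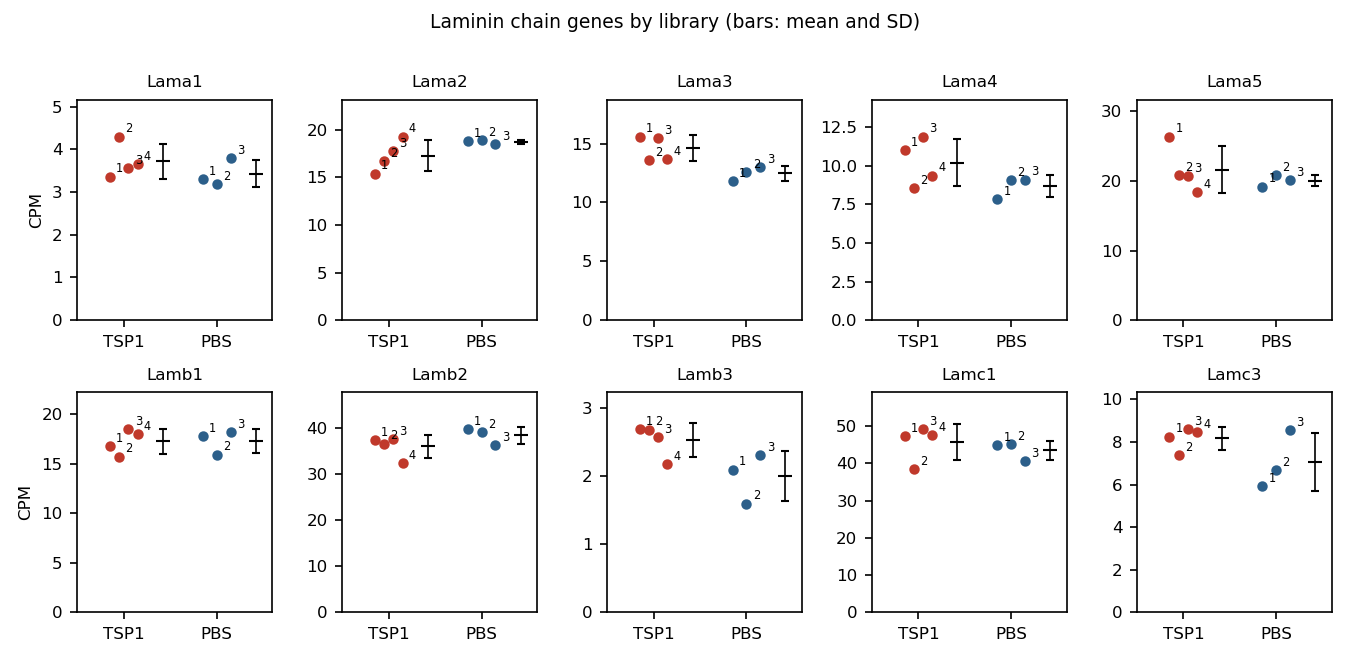
CPM of laminin genes in each library, TSP1 on the left and PBS on the right in each panel, with the mean and SD beside the points; small numbers are the replicates. Lama3 (13.6 to 15.6 CPM with TSP1, 11.8 to 13.0 CPM with PBS) shows no overlap, and the other panels overlap.

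Collagen VI held both the highest level and the widest group differences of the family. With Col28a1, a related collagen, its 7 genes lay above 0 in 5 and below 0 in 2 (median log2 fold change 0.06), and 2 (28.6%) had an unadjusted p under 0.05, 1 in each direction, against 9.65% of all genes. Its classical chains Col6a1, Col6a2 and Col6a3 had log2 fold changes of 0.06 (SE 0.11), 0.06 (SE 0.11) and 0.11 (SE 0.24). Col6a1 had 224, 207, 192 and 224 CPM with TSP1 and 246, 172 and 193 CPM with PBS, so that PBS held both the highest and the lowest library. Per exon length Col6a1 was 11.2 ± 0.861 times Col6a2 with TSP1 (SD, n = 4) and 11.1 ± 1.41 times with PBS (SD, n = 3). This ratio depends on the annotated lengths, 4380 bases for Col6a1 and 8326 for Col6a2. Before division by length, the mean was 212 against 36.3 CPM with TSP1 and 204 against 34.8 CPM with PBS. The other 3 chains, Col6a4, Col6a5 and Col6a6, can take the place of the alpha3 chain and lie side by side on the minus strand of chromosome 9, Col6a6 from 105687809 to 105828160, Col6a5 from 105856078 to 105960643 and Col6a4 from 105989454 to 106096783 (GRCm38). In humans the counterpart of Col6a4 is broken by a chromosomal rearrangement and is not a working gene.

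Col6a4 had 16, 83, 57 and 107 counts with TSP1, and 218, 238 and 217 counts with PBS. Scaled to library size these were 1.06, 4.47, 3.13 and 5.83 CPM with TSP1, and 10.4, 14.1 and 13.3 CPM with PBS. All TSP1 libraries lay below all PBS libraries, and relative to their mean they spread more widely, with TSP1 replicate 1 the lowest and TSP1 replicate 4 the highest. The means were 3.62 ± 2.03 CPM with TSP1 (SD, n = 4) and 12.6 ± 1.92 CPM with PBS (SD, n = 3), a ratio of 0.288. The log2 fold change was -1.77 (SE 0.43, FDR = 0.310), the largest in size of any member. Its call depended on the test. The adjusted p was 0.0441 in edgeR's exact test, 0.112 in DESeq2 and 0.16 in limma-voom. With 1 library left out, the exact test gave adjusted p of 7.75e-08 without TSP1 replicate 1 and 0.00134 without TSP1 replicate 4, and 0.0955 without TSP1 replicate 2 and 0.248 without TSP1 replicate 3. Without PBS replicate 1, 2 or 3 it gave 0.0931, 0.230 and 0.207. The quasi-likelihood log2 fold change ran from -2.08 to -1.48 with 1 library left out, with FDR from 0.0537 to 0.650. An unspliced annotated transcript on the other strand, Gm36993, overlaps the start of Col6a4 and had 0, 5, 3 and 10 counts with TSP1 and 9, 7 and 6 with PBS. The sources used here do not say whether counting used strand.

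Of the other genes of this cluster, Col6a6 was also lower in every TSP1 library than in any PBS library, and Col6a5 was not. Col6a5 had 0.792, 1.29, 0.713 and 2.02 CPM with TSP1 and 0.860, 0.296 and 0.611 CPM with PBS. The groups overlapped, with a log2 fold change in the other direction of 1.00 (SE 0.45, FDR = 0.493) that was 0.64 (adjusted p = 0.682) without TSP1 replicate 4 and 0.70 (adjusted p = 0.722) without PBS replicate 2. Col6a6 had 0.462, 0.484, 0.658 and 0.381 CPM with TSP1 and 0.956, 0.828 and 0.672 CPM with PBS. Here TSP1 replicate 3 and PBS replicate 3 nearly touched, and the values rest on 7, 9, 12 and 7 counts with TSP1 and 20, 14 and 11 counts with PBS (log2 fold change -0.72, SE 0.36, FDR = 0.560). On the lower side of the cluster, Atp2c1, a calcium pump of the Golgi, had a log2 fold change of 0.05 (SE 0.06) and Pik3r4, a subunit of a lipid kinase of endosomes and autophagy, 0.17 (SE 0.09, FDR = 0.550). On the upper side, Glyctk, a glycerate kinase, had 0.23 (SE 0.23, FDR = 0.799) and Wdr82, a subunit of a histone methyltransferase complex, 0.03 (SE 0.06). All 4 flanking genes had fitted values above 0. The differences of Col6a4 from Col6a5 and from the flanking genes were not tested.

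The sequences just before the starts of these 3 genes are shown because this cluster holds the members with the widest fitted values, which differ in sign between neighbours. They are RefSeq promoter sequences (GRCm38.p6, minus strand, written 5′ to 3′), trimmed so that they hold no exon of a protein-coding gene: chr9:106096784-106096941 for Col6a4, chr9:105960644-105960893 for Col6a5 and chr9:105828161-105828335 for Col6a6. The window of Col6a4 lies wholly within Gm36993, the transcript annotated on the other strand. Capitals mark matches to any of 3 motifs on either strand, and no match overlaps another. The motif TATAAA is the core of a TATA box. The motif CCAAT is that of a CCAAT box. The motif GGGCGG is that of a GC box, which factors of the Sp1 type bind.
Col6a4: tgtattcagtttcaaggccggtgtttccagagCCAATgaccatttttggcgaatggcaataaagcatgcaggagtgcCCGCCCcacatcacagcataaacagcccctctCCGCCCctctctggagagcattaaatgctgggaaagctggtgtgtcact
Col6a5: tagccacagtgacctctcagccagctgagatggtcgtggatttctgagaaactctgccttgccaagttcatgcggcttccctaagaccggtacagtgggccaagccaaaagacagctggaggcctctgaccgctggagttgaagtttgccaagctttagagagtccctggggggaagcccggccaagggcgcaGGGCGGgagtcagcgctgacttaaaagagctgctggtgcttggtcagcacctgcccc
Col6a6: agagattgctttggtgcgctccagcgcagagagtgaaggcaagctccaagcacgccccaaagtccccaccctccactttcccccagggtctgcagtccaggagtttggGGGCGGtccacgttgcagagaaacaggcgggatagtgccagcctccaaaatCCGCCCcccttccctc
Col6a4 held 1 match to the CCAAT motif and 2 to the GC box motif in 158 bases, which 21.2% and 17.8% of 32851 RefSeq promoters hold at least once in a window of that length. Col6a5 held 1 match to the GC box motif in 250 bases (32.7% of promoters at that length). Col6a6 held 2 in 175 bases (20.2%). None of the 3 windows held the TATA box core, found in 7.57%, 12.4% and 8.22% of promoters at 158, 250 and 175 bases. Neither Col6a5 nor Col6a6 held the CCAAT motif, found in 33.8% and 24.1% of promoters at their lengths.

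**Figure D4:**
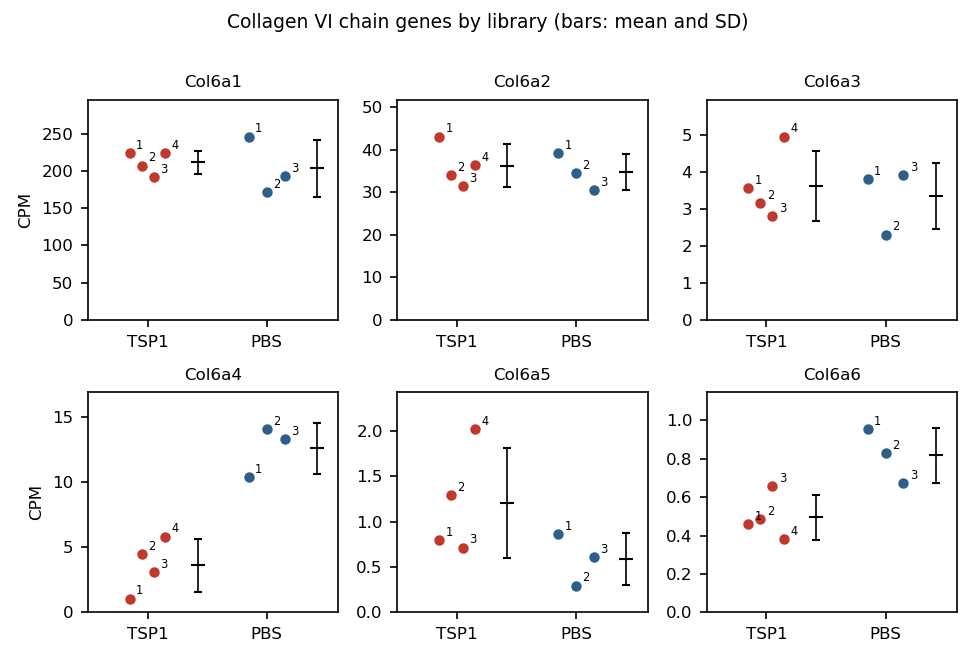
CPM of the 6 collagen VI genes in each library, TSP1 left of PBS, with mean and SD beside the points. Col6a4 lies at 1.06 to 5.83 CPM with TSP1 and 10.4 to 14.1 CPM with PBS, while Col6a1 and Col6a2 overlap.

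The collagens that sit on fibrils (FACIT) and those that span the membrane gave no member at an unadjusted p under 0.05 in the quasi-likelihood fit of all libraries. Of 9 FACIT genes, 6 lay above 0 and 3 below 0 (median log2 fold change 0.10). Col12a1, which links fibrils to their surroundings and had the smallest p of the class, had 64.5, 41.8, 52.2 and 62.9 CPM with TSP1 and 46.2, 50 and 39.8 CPM with PBS. Only TSP1 replicate 2 lay within the PBS range (log2 fold change 0.29, SE 0.15, FDR = 0.603). With 1 library left out the log2 fold change ran from 0.20, without PBS replicate 3, to 0.40, without TSP1 replicate 2 (adjusted p = 0.866 and 0.239). The unadjusted p of Col12a1 was 0.0337 in DESeq2 and 0.00183 in the quasi-likelihood fit without TSP1 replicate 2. It was above 0.05 in the other settings. Col19a1, a collagen made by neurons that in mice takes part in forming inhibitory synapses, had 38.3, 30.2, 28.1 and 22.7 CPM with TSP1 and 24.9, 31.6 and 35.5 CPM with PBS. TSP1 libraries were both the highest and the lowest, and the log2 fold change was -0.04 (SE 0.18, FDR = 0.968). Col25a1, a neuronal membrane collagen whose shed part is found in amyloid plaques, had 39.0, 31.6, 39.4 and 40.8 CPM with TSP1 and 38.8, 35.3 and 38.0 CPM with PBS. Its log2 fold change was 0.01 (SE 0.09, FDR = 0.982), and the groups overlapped. Col19a1 averaged 4.38 RPKM and Col25a1 2.90 RPKM, both above Col1a1 (1.07 RPKM) and Col1a2 (1.56 RPKM), the chains of collagen I. This order depends on the annotated exon lengths, among them 12426 bases for Col1a2. Before division by length, the PBS means were 30.6 CPM for Col19a1 and 37.4 for Col25a1. Those of Col1a1 and Col1a2 were 7.74 and 20.9 CPM. Among the 4 transmembrane collagens 3 lay above 0 (median 0.20). Col17a1, a collagen of epithelial anchoring junctions and the smallest p of that class, had 2.57, 1.94, 2.19 and 1.42 CPM with TSP1 and 1.34, 1.95 and 1.22 CPM with PBS, overlapping between the groups (log2 fold change 0.43, SE 0.28, FDR = 0.670).

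In the remaining class of short-chain, anchoring and other collagens, 3 of the 4 genes tested lay above 0 (median 0.09). The smallest p there was that of Col26a1, with 6.93, 6.51, 7.41 and 5.94 CPM with TSP1 and 5.35, 6.03 and 7.03 CPM with PBS (log2 fold change 0.13, SE 0.15, FDR = 0.832). The widest value was that of Col8a2, at 0.53 (SE 0.65), a gene of which TSP1 replicate 4 held 2.29 CPM and the other TSP1 libraries 0.660 to 0.878 CPM.

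Class means by library gave no class in which the groups separated widely. Taken as means of log2(CPM + 0.1) relative to the mean of the 7 libraries, fibrillar collagens lay at 0.13, -0.17, -0.07 and 0.01 with TSP1 and at -0.02, 0.03 and 0.08 with PBS. Laminins lay at 0.09, 0.01, 0.12 and 0.01 with TSP1 and at -0.10, -0.11 and -0.02 with PBS, so that the TSP1 libraries were above the PBS libraries by little. Endothelial markers on the same scale were at -0.02, -0.11, -0.02 and -0.29 with TSP1 and at 0.18, 0.22 and 0.04 with PBS.

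**Figure D5:**
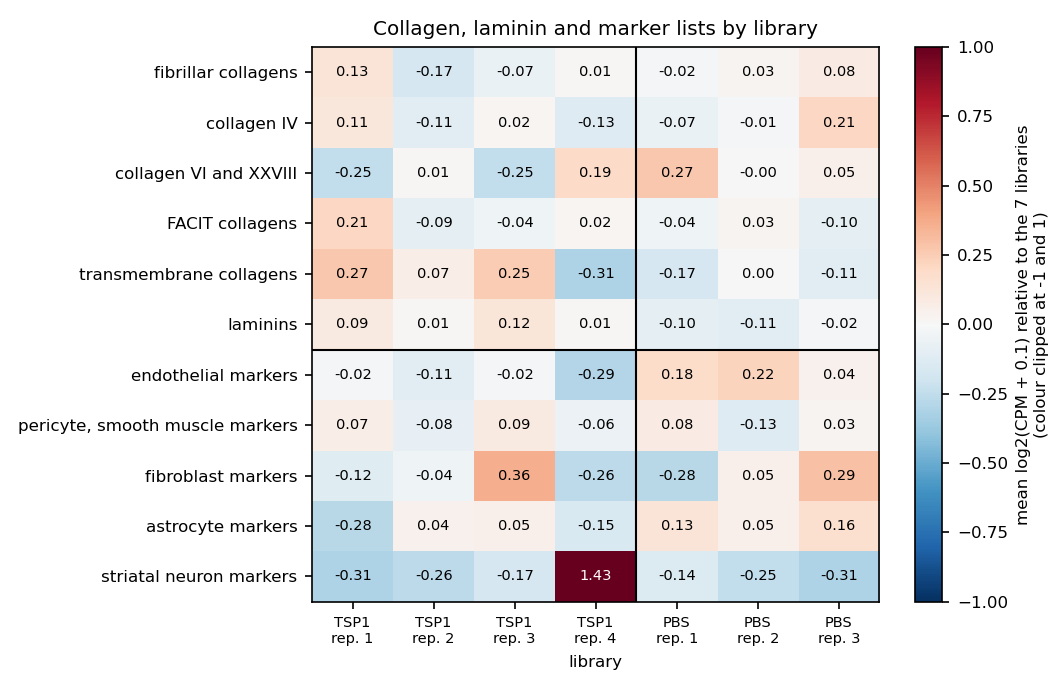
Mean log2(CPM + 0.1) of collagen and laminin classes and of cell type markers in each library (columns, TSP1 left of PBS), relative to the mean of the 7 libraries; red is higher and blue lower. Laminins are between 0.01 and 0.12 with TSP1 and between -0.11 and -0.02 with PBS, and striatal markers reach 1.43 in TSP1 replicate 4.

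Genes that make, cross-link or bind these chains were read from the same fit. Of 29 tested genes for collagen modification, secretion and cross-linking, 10 lay above 0 and 19 below 0 (median -0.07), and 1 was higher and 3 lower at an unadjusted p under 0.05 (13.8% in all), against 4.21% higher and 5.44% lower (9.65% in all) over all genes. P4ha1, a catalytic subunit of the prolyl hydroxylase that stabilizes the triple helix, had 51.6, 55.5, 51.3 and 55.4 CPM with TSP1 and 61.9, 61.3 and 67.3 CPM with PBS. The groups did not overlap (log2 fold change -0.25, SE 0.07, FDR = 0.256). P4ha3, another such subunit, had 2.04, 3.5, 2.85 and 2.23 CPM with TSP1 and 4.44, 3.37 and 3.55 CPM with PBS (log2 fold change -0.51, SE 0.22, FDR = 0.480). Sparc, a collagen-binding protein secreted by astrocytes and endothelium, had 157, 167, 202 and 158 CPM with TSP1 and 261, 189 and 189 CPM with PBS. TSP1 replicate 3 lay above 2 of the PBS libraries, and the log2 fold change was -0.32 (SE 0.13, FDR = 0.487). Without PBS replicate 1, the highest library, it was -0.15 (adjusted p = 0.705). Adamts3, a protease that trims procollagen ends, was the gene with higher values, at 16.2, 17.2, 16.6 and 17.8 CPM with TSP1 and 13.4, 15.3 and 14.1 CPM with PBS (log2 fold change 0.25, SE 0.09, FDR = 0.403).

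Of 8 other basement membrane components, which include nidogens, perlecan and agrin, 6 lay above 0 and none had an unadjusted p under 0.05 (median 0.04). The smallest p was that of Smoc2, a calcium-binding matrix protein, with 17.3, 24.9, 19.0 and 13.0 CPM with TSP1 and 22.9, 21 and 22.1 CPM with PBS (log2 fold change -0.25, SE 0.18, FDR = 0.716). Of 12 tested collagen and laminin receptors, 3 lay above 0 and 9 below 0 (median -0.11), and 2 (16.7%) were lower at an unadjusted p under 0.05, against 5.44% of all genes. Bcam, a receptor for the laminin alpha5 chain, had 13.3, 13.3, 13.6 and 11.0 CPM with TSP1 and 16.9, 15.7 and 14.9 CPM with PBS (log2 fold change -0.31, SE 0.10, FDR = 0.365). Itga6, the alpha6 subunit of laminin-binding integrins, had 29.9, 30.7, 30.6 and 25.3 CPM with TSP1 and 32.1, 36.3 and 31.8 CPM with PBS (log2 fold change -0.20, SE 0.09, FDR = 0.492). Without TSP1 replicate 4 or without PBS replicate 2 the value of Itga6 was -0.13 (adjusted p = 0.648 and 0.777). The groups did not overlap in 3 of the 12 receptors (25.0%, against 10.1% of all genes), with TSP1 below PBS in Bcam and Itga6 and above it in Itga3, a laminin-binding integrin subunit (log2 fold change 0.19, SE 0.09, FDR = 0.520). Endothelial markers summed to 239 to 300 CPM with TSP1 and 307 to 374 CPM with PBS; their part in these values was not tested.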

How the data were processed

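RNA from mouse mPFC was sequenced in 7 libraries, 4 with TSP1 and 3 with PBS, grouped by their titles. The table deposited by the authors holds read counts per gene, all whole and summing differently in each library. The builds GRCm38 and mm10 come from the submitters' processing notes. The sources used here do not give the aligner, the counting tool or the use of strand. Every gene listed has at least 5 counts over the libraries. Gene identifiers were matched to GENCODE M21 for symbols, coordinates and exon length (25375 of 25467 matched).

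The test was edgeR 4.0.16 in R 4.3.3 over all genes (filterByExpr, TMM, robust quasi-likelihood fit, two-sided, Benjamini-Hochberg), with each SE obtained by dividing the absolute log2 fold change by the root of F. P-values rest on the spread between mice of 1 group. Depths were 15090336 to 20755167 counts. The SEs, which rest on the spread between libraries, had a median of 0.11 log2 units. Replicate libraries differed by more than sampling noise (chi-square per degree of freedom of 4.26 to 14.7), so each counted once. Alternatives were RLE size factors, DESeq2 1.42.0 (no adjusted p for 10876 genes), the exact test, limma 3.58.1 voom, no low-count filter, a filter at 5 CPM in 3 libraries, a block for the replicate number, length and GC offsets (splines with 4 degrees of freedom) and leaving out each library. The exact test with libraries left out was added after the data were seen. The scripts were tested on simulated counts.

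The members and lists were chosen with earlier results of these data known. The genes named were 12 fixed chains (Col1a1, Col1a2, Col3a1, Col4a1, Col4a2, Col19a1, Col25a1, Lama2, Lama4, Lamb1, Lamb2 and Lamc1), members with an unadjusted p under 0.05, the smallest p of each class and, in each partner list, up to 4 genes at that p or otherwise the smallest. The result of 1 gene chosen by this rule is left out of the text and figures. Other genes named, among them Col6a1, Col6a6, Col8a2, Itga3 and the genes flanking the collagen VI cluster, were chosen after their values were seen. Promoter rows were found for 40 of the members.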

Additional observations from a re-analysis of the deposited data

Results flagged for a closer look

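A Dixon test over the 4 TSP1 libraries marked 2 of 54 members in which 1 library lay far from the others, where chance marks about 1 in 20. For Col9a3, a chain of the fibril-bound collagen IX, TSP1 replicate 4 was the highest at 15.5 CPM, against 12.7 to 13.1 CPM in the other TSP1 libraries and 13.9 to 17.9 CPM with PBS, and the gap to the nearest was 0.874 of the range. For Col8a2, a short-chain collagen, TSP1 replicate 4 was the highest at 2.29 CPM, against 0.660 to 0.878 CPM in the other TSP1 libraries and 0.143 to 1.36 CPM with PBS, with a gap of 0.866 of the range. TSP1 replicate 4 was also the library with the highest sums of striatal markers (616 CPM) and of oligodendrocyte markers (8680 CPM). The part of these in either gene was not tested.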

How the results depend on the processing

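The count of members past the adjusted threshold was 0 in the quasi-likelihood fit and 1 in the exact test (Col6a4). Over all genes that count was 0, and it was 88 with DESeq2, 85 with the exact test and 19 with no low-count filter; with 1 library left out it ran from 0 to 9, the highest being without PBS replicate 3. Members at an unadjusted p under 0.05 numbered 4, and 2 with length and GC correction; with 1 library left out they ran from 2 (without PBS replicate 2) to 5. The median of fibrillar genes was -0.03, and with 1 library left out it ran from -0.13 to 0.05, so its sign was not fixed. The median of basement membrane genes was 0.04 and ran from 0.01 to 0.09. Of 422 values of 28 genes chosen by the naming rule under alternatives, 404 kept their sign and their side of the threshold, 15 in 4 genes changed sign and 3, all of Col6a4 in exact tests (-1.79, and -1.49 and -2.11 without TSP1 replicates 1 and 4), passed the threshold. The DESeq2 value of Col6a5, which had no adjusted p, was counted among the 404. With 1 library left out, Col3a1 ran from -0.24 to 0.26, Col19a1 from -0.18 to 0.08, Col25a1 from -0.03 to 0.09 and Lamb1 from -0.06 to 0.04; Col25a1 was -0.06 with length and GC correction. The cause was not tested. The groups share replicate numbers, but same-numbered libraries did not deviate together (correlations -0.261, -0.0331 and 0.0103). No library correlated best with the one of its own number. Pairing by number was thus not seen, though so few correlations cannot exclude it. With the replicate number as a block, 0 members passed the adjusted threshold and 3 had an unadjusted p under 0.05. In that fit Col19a1 was 0.07, Col25a1 was -0.03 and Col6a4 was -2.20 (adjusted p = 0.138). No PBS library has the number of TSP1 replicate 4, so that library added nothing to the group difference there. At this depth Col10a1, with 2 to 7 counts per library, could not be tested.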
